A study of Homo sapiens with 2 samples.

Results

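The 71 genes described here encode secreted and extracellular proteins, as annotated in a table of 2007 genes that the study's authors listed as differing between HT-29 libraries. The rule uses annotation and symbols and no measured value, but every gene had already passed the authors' selection on fold and false discovery rate, and earlier results of these data were known when the rule was written. Of 108 listed genes with the gene ontology component term extracellular region or extracellular space, 37 were left out. A process term naming cell adhesion, actin, apoptosis or protein folding removed 27, and a list of symbols such as SPARC, PLAU, AREG and VEGFA removed 20, with 10 of the 37 removed on both grounds. HT-29 is a human epithelial line from a colon adenocarcinoma. One library came from HT-29 cells with GPR126 knockdown by RNA interference, and 1 from HT-29 cells with a scramble control. Neither library is labelled as one of several cultures or hairpins, so the knockdown and any other difference between these 2 cultures cannot be told apart. RNA sequencing gave 6010192 reads in the knockdown library and 5753320 in the scramble library. GPR126 itself, an adhesion receptor now named ADGRG6, had 2 reads in the knockdown library and 68 in the scramble library.

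Secreted proteins are made on ribosomes at the endoplasmic reticulum, usually led there by a signal peptide, and reach the cell surface through the Golgi apparatus. Colon epithelial cells release growth factors that act on their own receptors and on neighbouring stroma, proteases with matching inhibitors, and proteins that bind or modify the matrix. Some receptors are also annotated as extracellular because a soluble form is shed from the membrane. Messenger RNA levels say nothing directly about how much protein is released.

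The group divided almost evenly by direction, whereas the listed table as a whole leaned downward. Of the 71 genes, 37 were at least 2-fold higher in the knockdown library and 34 at least 2-fold lower. That is 52.1% higher and 47.9% lower, set against 33.2% higher and 66.7% lower among all 2007 listed genes. Every listed gene had been selected by the authors at about 2-fold, so being past 2-fold is a property of the table and only the direction can be read. The median log2 ratio was 1.04 over the 71 genes and -1.16 over all listed genes, with 0.5 reads added to each count. As almost no listed gene lies nearer to equality than 2-fold, each median follows the majority direction and is not a typical difference. The balance was also upward among the largest differences, though by few genes. At 4-fold, 8 genes (11.3%) were higher and 5 (7.04%) lower, and the corresponding shares of all listed genes were 8.67% and 8.57%. Of the higher genes at 4-fold, 3 had 0 scramble reads. No test of the conditions is possible with 1 library each, and these shares are a description.

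**Figure D1:**
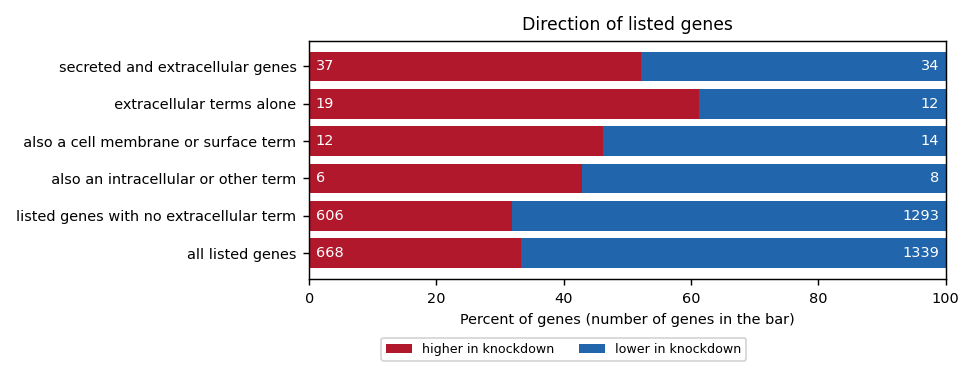
Percent of genes higher (red) and lower (blue) in the knockdown library, with the number of genes written in each bar, for the 71 secreted and extracellular genes, for their annotation classes and for listed genes outside the extracellular terms. The top bar divides at 52.1%, and the bar of all listed genes divides with 668 higher and 1339 lower genes.

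The other component terms of these genes, which did not enter the choice, divided them by where else the protein is annotated. Extracellular terms stood alone for 31 genes, of which 19 were higher and 12 lower. A cell membrane or surface term was also present for 26 genes, with 12 higher and 14 lower. The remaining 14 genes carried an intracellular or other term as well, and 6 of these were higher and 8 lower. Among listed genes with no extracellular term, 606 of 1899 were higher. Some annotations sit poorly with a secreted protein: MAP2K2 is a cytosolic kinase, SORD a cytosolic enzyme, and C12orf73 is now named UQCC6 after a mitochondrial complex assembly factor.

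Summed over the 71 genes, the knockdown library held 14373 reads and the scramble library 16219, which is 0.239% and 0.282% of each library. The 37 higher genes together had 1598 reads per 1e6 library reads (RPM) in the knockdown library and 607 in the scramble library. Together the 34 lower genes had 793 RPM in the knockdown library and 2212 RPM in the scramble library. RPM is not divided by gene length, so it compares a gene between libraries and does not rank genes. In RNA from a whole culture, fewer cells making a transcript and less of it per cell cannot be told apart. Counting precision varied widely: 61 genes had at least 50 reads in the library where they were higher, and 10 had fewer. Fold differences below carry an exact 95% counting interval in brackets. The interval covers counting error only and holds nothing of the variation between cultures. It excluded equality for all 71 genes, which follows from the authors' selection, and lay wholly beyond 2-fold for 14 higher and 14 lower genes. Among all listed genes the interval lay beyond 2-fold for 16.4% on the higher side and 33.1% on the lower side.

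**Figure D2:**
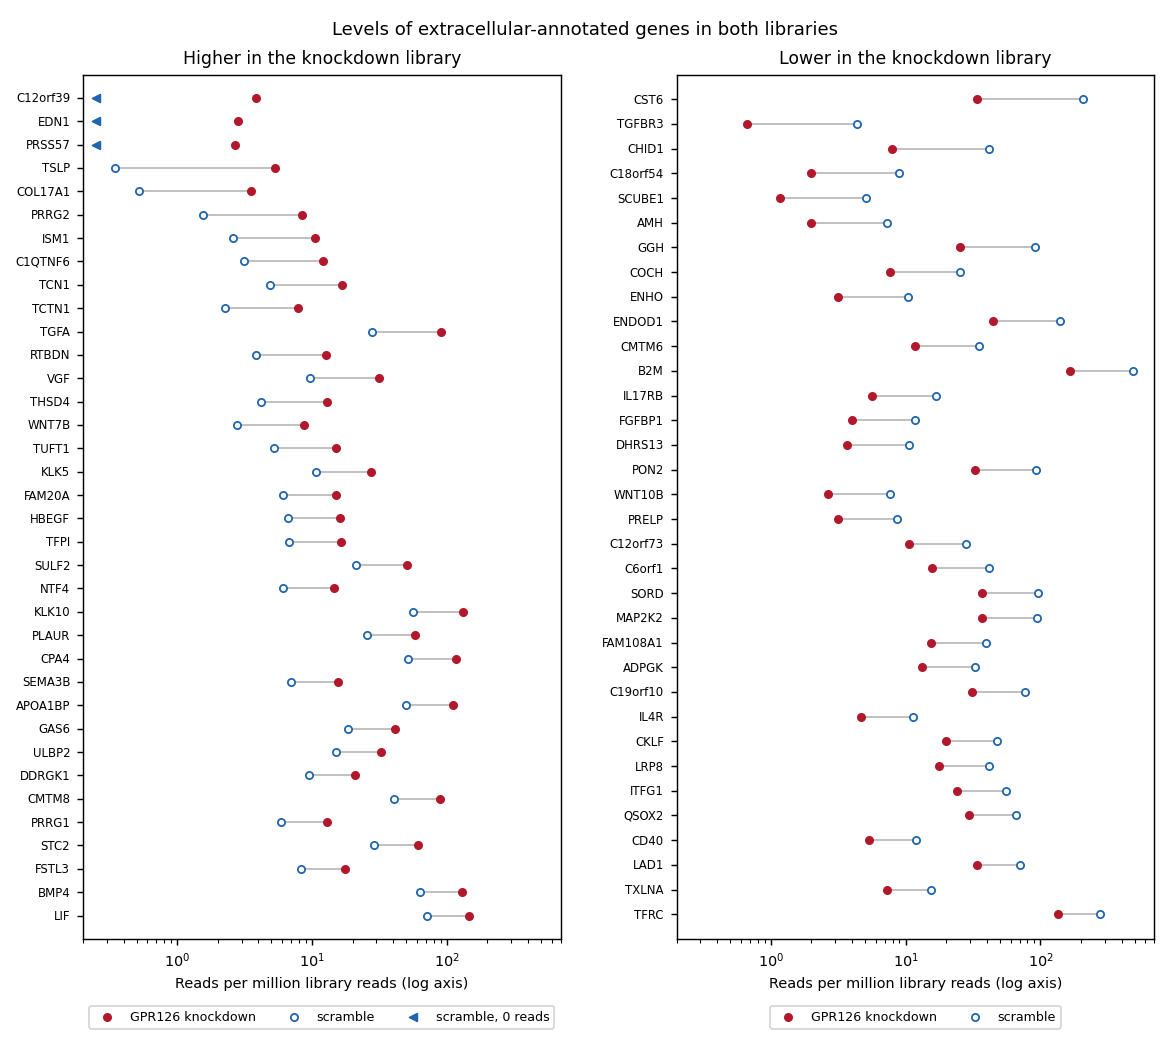
RPM (log axis) of each gene in the knockdown library (filled red) and the scramble library (open blue), for 36 of the 37 higher genes on the left and the 34 lower genes on the right, each ordered by the size of the log2 ratio. Triangles at the left edge mark the 3 genes with 0 reads in the scramble library.

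Signalling ligands, hormones and proteins that modulate them made up 19 of the 71 genes, and 13 of them were higher. TGFA, transforming growth factor alpha, is a membrane-anchored ligand of the epidermal growth factor receptor (EGFR). It had 547 reads in the knockdown library and 160 in the scramble library, 3.27-fold higher (2.74 to 3.93). HBEGF, a second EGFR ligand, had 96 and 38 reads in the knockdown and scramble libraries and was 2.42-fold higher (1.64 to 3.62). Both of these ligands were thus higher, and their intervals overlap. The rule left AREG out by symbol, so TGFA and HBEGF need not be every listed EGFR ligand. BMP4, a bone morphogenetic protein that shapes differentiation along the crypt, had 774 knockdown and 361 scramble reads, a 2.05-fold difference (1.81 to 2.33). FSTL3, a secreted antagonist of activin-type ligands, had 105 knockdown and 48 scramble reads and was 2.09-fold higher (1.47 to 3.01). BMP4 and FSTL3 lay on the same side, whereas AMH, another ligand of the TGF-beta superfamily, was 3.66-fold lower.

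Peptide hormones and prohormones reached the largest ratios of the ligand group, from few reads. C12orf39, now named SPX for the peptide spexin, had 23 reads in the knockdown library and 0 in the scramble library. EDN1, the precursor of the vasoconstrictor endothelin-1, had 17 reads in the knockdown library and 0 in the scramble library. With the 0 set to 3 reads, C12orf39 was 7.34-fold and EDN1 5.42-fold higher. These folds leave out the counting error of the knockdown reads, so they are not lower limits. VGF, a neuroendocrine secretory protein cleaved to peptides, had 187 knockdown and 56 scramble reads and was 3.20-fold higher (2.36 to 4.39). STC2, stanniocalcin 2, a glycoprotein hormone known as a target of the unfolded protein response, had 368 and 167 reads in the knockdown and scramble libraries, 2.11-fold higher (1.75 to 2.55). ENHO, which encodes the metabolic peptide adropin, differed from these in direction: it had 19 knockdown and 60 scramble reads, 3.30-fold lower (1.94 to 5.85).

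The stretch upstream of the annotated start is shown for EDN1 and VGF, a pair of higher hormone genes, because each holds a TATA-type match close to the start. These are RefSeq sequences of build GRCh38.p14, read 5′ to 3′ on the gene's strand, 250 bases ending at the base before the start. Capitals mark matches to any of 6 motifs, each searched on both strands. The TATA box was searched as TATAAA. The element of the AP-1 factors was searched as TGANTCA, and the composite site of the ATF4 factor as TGATGNAA. The core of the cAMP response element was searched as TGACG, and the full element, which contains that core, as TGACGTCA. The last motif was the CCAAT box. The EDN1 window is chr6:12290111-12290360 on the plus strand, the one of its 3 given starts with a TATA match, at 26 to 31 bases before the start. The VGF window is chr7:101165570-101165819 on the minus strand. It has a full cAMP response element 72 to 79 bases before the start and a TATA match 27 to 32 bases before it.
EDN1: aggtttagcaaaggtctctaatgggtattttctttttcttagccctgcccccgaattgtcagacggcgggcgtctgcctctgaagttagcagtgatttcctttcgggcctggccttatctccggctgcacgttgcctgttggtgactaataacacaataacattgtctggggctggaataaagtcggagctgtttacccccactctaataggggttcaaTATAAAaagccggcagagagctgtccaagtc
VGF: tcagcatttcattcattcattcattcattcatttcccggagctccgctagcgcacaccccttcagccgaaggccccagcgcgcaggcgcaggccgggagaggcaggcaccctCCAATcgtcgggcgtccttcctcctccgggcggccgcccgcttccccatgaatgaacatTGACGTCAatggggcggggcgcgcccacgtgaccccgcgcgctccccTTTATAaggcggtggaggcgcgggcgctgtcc
Across the gene set, 57 of 71 genes matched the promoter table, 30 higher ones with 49 windows and 27 lower ones with 31 windows. A TATA match was found in at least 1 window of 7 higher genes (23.3%) and 2 lower genes (7.41%), beside 8.17% of listed genes and 13.05% of all 27305 genes in the table. The full cAMP response element was found for 2 higher genes (6.67%), VGF and SEMA3B, for no lower gene, and for 3.78% of listed genes and 2.03% of all genes. Its core went the other way, with a match for 23.3% of higher and 40.7% of lower genes, beside 39.1% of listed genes and 24.9% of all genes. A CCAAT match was found for 46.7% of higher and 22.2% of lower genes, beside 42.3% of listed and 37.0% of all genes. The ATF4 composite site was found for 3.33% of higher and 3.70% of lower genes, beside 2.01% of listed and 3.89% of all genes. Genes with several starts have more windows to match in; per window the TATA share was 14.3% in higher and 6.45% in lower genes. A match is a description of the letters and not a site shown to be used.

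Other ligands with roles in patterning and guidance were divided. WNT7B, a Wnt ligand, had 52 knockdown and 16 scramble reads and was 3.11-fold higher (1.75 to 5.84). Its relative WNT10B had 16 knockdown and 44 scramble reads and was 2.87-fold lower (1.59 to 5.45). Among 39 fixed symbols of Wnt and Hedgehog pathway secreted proteins these were the 2 listed, on opposite sides. DKK1, a symbol barred by the rule, is not counted on this list. ISM1, isthmin 1, a secreted protein known as an inhibitor of angiogenesis, had 63 and 15 reads in the knockdown and scramble libraries, 4.02-fold higher (2.26 to 7.603). SEMA3B, a guidance semaphorin, and NTF4, a neurotrophin, were 2.25-fold (1.54 to 3.34) and 2.38-fold higher (1.59 to 3.63). GAS6, the vitamin K-dependent ligand of the TAM receptors, had 246 knockdown and 107 scramble reads and was 2.20-fold higher (1.75 to 2.79).

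Apart from WNT10B and ENHO, the lower ligand-type genes were AMH, SCUBE1, FGFBP1 and C19orf10. AMH, anti-Müllerian hormone of the TGF-beta superfamily, had 12 knockdown and 42 scramble reads, 3.66-fold lower (1.89 to 7.63). SCUBE1, a secreted and surface-bound EGF-domain protein, had 7 knockdown and 29 scramble reads, 4.33-fold lower (1.86 to 11.7). FGFBP1, a carrier that releases fibroblast growth factors from the matrix, had 24 and 68 reads in the knockdown and scramble libraries, 2.96-fold lower (1.83 to 4.93). Their levels rested on few knockdown reads, and the intervals are wide for that reason. C19orf10, now named MYDGF for myeloid-derived growth factor, had 188 knockdown and 445 scramble reads and was 2.47-fold lower (2.08 to 2.95).

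The growth factor list of 93 symbols was chosen with earlier results of these data known. It holds 11 listed genes, 9 higher and 2 lower, with a median log2 ratio of 1.16, whereas 33.2% of all listed genes were at least 2-fold higher. The lower ones were FGFBP1 and the semaphorin SEMA4C. The 71 genes contributed 8 of the 11, 7 higher and 1 lower, so the list mostly repeats genes described above. Genes barred by symbol, such as AREG and VEGFA, are not counted in this or the other fixed lists. The list counts therefore do not cover every listed gene of a class.

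Proteases, their inhibitors and coagulation-type proteins formed the most one-sided of the role groups with higher genes, 9 higher and 1 lower of 10. Role groups were drawn up with the values known, so this split also describes the grouping. The higher genes placed here include a receptor, PLAUR, and the membrane proteins PRRG1 and PRRG2. Over the whole listed table, 33.2% of genes were higher by 2-fold or more. PLAUR, the urokinase receptor, had 348 knockdown and 147 scramble reads and was 2.27-fold higher (1.86 to 2.77). TFPI, the inhibitor of the tissue factor pathway, had 98 and 39 reads in the knockdown and scramble libraries, 2.41-fold higher (1.64 to 3.58). A receptor that focuses proteolysis at the cell surface and an inhibitor of coagulation were therefore both higher, with overlapping intervals.

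Secreted peptidases were higher as well. KLK10 had 795 reads in the knockdown library and 324 in the scramble library, 2.35-fold higher (2.06 to 2.68). KLK5, another kallikrein-related serine protease, had 163 knockdown and 61 scramble reads, 2.56-fold higher (1.89 to 3.49). CPA4, a carboxypeptidase, had 696 knockdown and 298 scramble reads, 2.24-fold higher (1.95 to 2.57). The fixed list of 110 secreted protease symbols held these 3 listed genes and no lower one. PLAU, barred by symbol, is not counted on it. Not on that list, PRSS57, a serine protease known from neutrophil granules, had 16 knockdown reads and 0 scramble reads. With the 0 set to 3 reads it was 5.11-fold higher. PRRG1 and PRRG2, membrane proteins with a vitamin K-dependent Gla domain, were 2.17-fold (1.43 to 3.35) and 5.42-fold higher (2.64 to 12.5). In the deposited annotation, peptidase activity was attached to 5 of the 71 genes, all higher. They are KLK5, KLK10, CPA4, PRSS57 and THSD4, which is described below as a microfibril protein. Of the 37 listed genes with that term, 28 were lower. None of the 28 is among the 71, which were chosen by an extracellular term, so the contrast also describes that choice.

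Upstream sequence is shown for CPA4 and PLAUR because they are the 2 genes with an AP-1 match among the 57 matched to the promoter table. The CPA4 window is chr7:130292911-130293160 on the plus strand, with AP-1 matches 42 to 48 and 9 to 15 bases before the start and a TATA match between them. The PLAUR window is chr19:43670170-43670419 on the minus strand, with its AP-1 match 180 to 186 bases before the start. AP-1 matches were present for 6.67% of the matched higher genes, for 5.42% of listed genes and for 8.06% of all genes, and for none of the 27 matched lower genes.
CPA4: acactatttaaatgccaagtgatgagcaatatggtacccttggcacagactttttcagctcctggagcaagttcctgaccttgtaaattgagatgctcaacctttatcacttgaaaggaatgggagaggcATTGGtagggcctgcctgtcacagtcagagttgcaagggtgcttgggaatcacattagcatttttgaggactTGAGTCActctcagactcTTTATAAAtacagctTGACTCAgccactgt
PLAUR: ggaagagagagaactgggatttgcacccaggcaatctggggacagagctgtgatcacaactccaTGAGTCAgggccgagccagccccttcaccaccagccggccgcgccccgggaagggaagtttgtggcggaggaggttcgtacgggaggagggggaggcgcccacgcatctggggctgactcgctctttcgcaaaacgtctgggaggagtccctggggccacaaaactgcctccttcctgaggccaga

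The exception among protease-related genes was CST6. This gene encodes cystatin E/M, a secreted inhibitor of cysteine proteases that acts in the formation of the cornified layer of skin. It had 204 reads (33.9 RPM) in the knockdown library and 1187 reads (206 RPM) in the scramble library, 6.08-fold lower (5.24 to 7.09). Its log2 ratio, -2.60 with 0.5 reads added, was the lowest of the 71 genes. Without added reads TGFBR3 had the larger fold, 6.53-fold lower (2.25 to 25.8), from 4 knockdown and 25 scramble reads. Of 60 protease inhibitor symbols in the fixed list, 4 were listed, 3 higher and 1, CST6, lower. CSTA, the intracellular cystatin A and not one of the 71 genes, had 212 knockdown and 37 scramble reads, 5.48-fold higher (3.85 to 8.003). The 2 cystatins thus lay on opposite sides with intervals far from equality.

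Cytokines and immune ligands were mixed, 5 higher and 4 lower of 9. LIF, a cytokine of the interleukin-6 family, had 880 reads in the knockdown library and 412 in the scramble library, 2.04-fold higher (1.82 to 2.30). TSLP, an epithelial cytokine that acts on dendritic cells, had 32 knockdown and 2 scramble reads, 15.3-fold higher (3.91 to 132). The lower bound for TSLP exceeds the upper bound for LIF, although the TSLP ratio rests on 2 scramble reads. ULBP2, a stress-induced ligand of the NKG2D receptor on natural killer cells, had 196 and 86 reads in the knockdown and scramble libraries, 2.18-fold higher (1.68 to 2.85). C1QTNF6, a secreted protein with a C1q-type domain, had 72 knockdown and 18 scramble reads and was 3.83-fold higher (2.26 to 6.82). ULBP2 belongs to a family with near-identical copies, and the sources used here do not say how shared reads were counted.

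B2M was the lower gene with the most reads. It encodes beta-2-microglobulin, the light chain of class I major histocompatibility molecules, which is shed into body fluids. B2M had 991 reads (165 RPM) in the knockdown library and 2788 reads (485 RPM) in the scramble library, 2.94-fold lower (2.73 to 3.16). A stress ligand of natural killer cells was thus higher and the class I light chain lower in the same library. The B2M upstream window, shown because B2M is the most read of the 71 genes, is chr15:44711267-44711516 on the plus strand. It holds a core of the cAMP response element 71 to 75 bases and a reverse CCAAT match 45 to 49 bases before the start.
B2M: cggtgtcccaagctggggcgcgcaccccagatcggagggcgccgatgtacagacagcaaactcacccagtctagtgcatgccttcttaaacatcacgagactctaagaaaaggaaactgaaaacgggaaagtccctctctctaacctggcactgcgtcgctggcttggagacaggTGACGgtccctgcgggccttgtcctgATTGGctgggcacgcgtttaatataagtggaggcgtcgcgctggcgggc

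The chemokine-like MARVEL family had 3 genes in the set, with different directions. CMTM6, known as a stabiliser of the checkpoint ligand PD-L1 at the cell surface, had 70 knockdown and 200 scramble reads, 2.98-fold lower (2.26 to 3.98). CKLF, the chemokine-like factor that names the family, had 119 and 274 reads in the knockdown and scramble libraries, 2.41-fold lower (1.93 to 3.01). CMTM8 had 530 knockdown and 235 scramble reads and was 2.16-fold higher (1.85 to 2.53). TXLNA, a taxilin described as a B cell growth factor but also as an intracellular syntaxin-binding protein, was 2.09-fold lower (1.44 to 3.07) with 44 knockdown and 88 scramble reads. Of 70 cytokine and chemokine symbols in the fixed list, 9 were listed, 6 higher and 3 lower. Cytokines barred by symbol are not counted there.

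**Figure D3:**
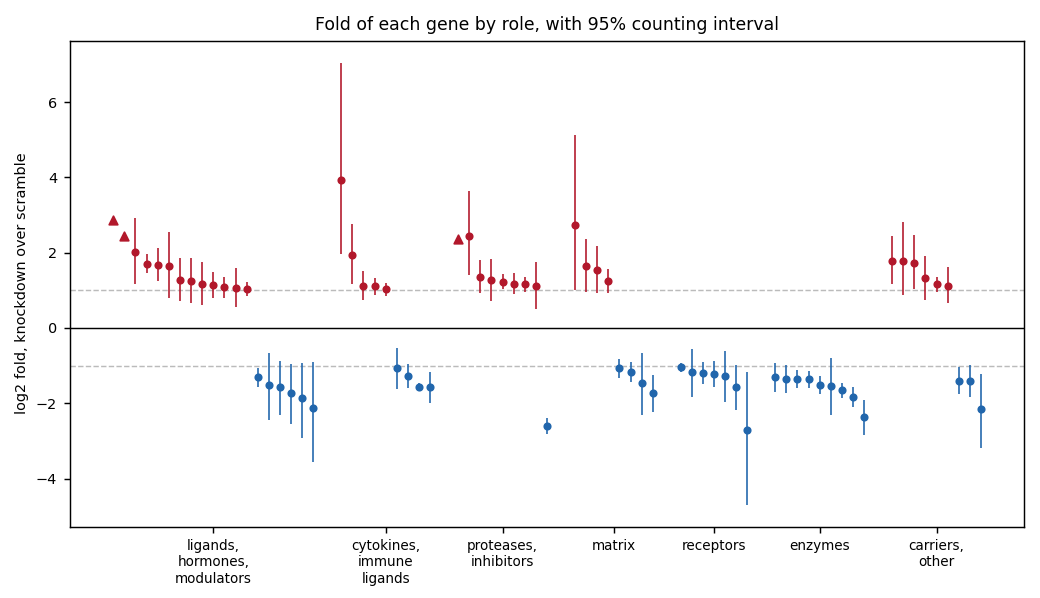
Fold difference (log2, knockdown over scramble, no reads added) of 70 of the 71 genes by role, with 95% counting intervals. Triangles are genes with 0 scramble reads, drawn with that count set to 3 and without an interval, and dashed lines mark 2-fold. The groups were drawn with the values known: the 7 genes grouped as receptors and the 9 grouped as metabolic, lysosomal and other enzymes lie below 0, and 8 of the 9 protease-related genes plotted, peptidases included, lie above it.

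Matrix proteins and matrix modifiers were split, 4 higher and 4 lower. COL17A1, the transmembrane collagen of hemidesmosomes, had 21 knockdown and 3 scramble reads, 6.70-fold higher (2.001 to 35.1). LAD1, ladinin 1, an anchoring filament protein of basement membranes, had 204 and 409 reads in the knockdown and scramble libraries, 2.09-fold lower (1.77 to 2.49). A pair of genes linked to epithelial anchorage therefore differed in direction. SULF2, a sulfatase that removes sulfate from heparan sulfate chains outside the cell, had 303 knockdown and 122 scramble reads, 2.38-fold higher (1.92 to 2.96). THSD4, a thrombospondin-domain protein of microfibrils, and TUFT1, tuftelin of developing enamel, were 3.11-fold (1.95 to 5.14) and 2.90-fold higher (1.90 to 4.55).

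On the lower side, COCH, cochlin, a matrix protein of the inner ear, had 46 knockdown and 146 scramble reads, 3.32-fold lower (2.37 to 4.72). QSOX2, a sulfhydryl oxidase that forms disulfide bonds, had 178 and 382 reads in the knockdown and scramble libraries, 2.24-fold lower (1.87 to 2.69). PRELP, a leucine-rich repeat proteoglycan, had 19 knockdown and 50 scramble reads, 2.75-fold lower (1.59 to 4.94). Over a fixed list of 109 matrix-modifying and matrix-associated symbols, 8 were listed, 3 higher and 5 lower, among them COL17A1, SULF2 and QSOX2 of the 71 genes. SPARC and COL1A1, both barred by symbol, are not counted there.

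All 7 genes placed in the role group of membrane receptors were lower. TFRC, the transferrin receptor that brings iron into cells, had 808 reads in the knockdown library and 1598 in the scramble library, 2.07-fold lower (1.90 to 2.25). IL4R, a receptor chain for interleukins 4 and 13, had 28 knockdown and 65 scramble reads, 2.43-fold lower (1.53 to 3.92). IL17RB, the receptor for interleukin 25, had 34 and 96 reads in the knockdown and scramble libraries, 2.95-fold lower (1.98 to 4.50). CD40, a receptor of the tumour necrosis factor family, had 32 knockdown and 69 scramble reads, 2.25-fold lower (1.46 to 3.54). All 3 immune receptors were thus lower by similar folds with overlapping intervals. TGFBR3, or betaglycan, which presents TGF-beta to its signalling receptors, had 4 knockdown and 25 scramble reads, 6.53-fold lower (2.25 to 25.8). LRP8, a reelin and apolipoprotein E receptor, was 2.32-fold lower (1.84 to 2.95), and ITFG1 2.29-fold lower (1.88 to 2.81).

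The role groups were drawn up with the values known, so a one-sided group is not evidence for itself. PLAUR, also a receptor, was placed with the proteases and was higher. By the deposited function terms instead, receptor activity was attached to 6 of the 71 genes, 2 higher and 4 lower, beside 23 higher and 27 lower among 50 listed genes. ITFG1, LRP8 and TGFBR3 of the role group do not carry that term. The TFRC upstream window is shown as the receptor gene with the most reads, at chr3:196082091-196082340 on the minus strand. It has a TATA match 28 to 33 bases and a core of the cAMP response element 69 to 73 bases before the start.
TFRC: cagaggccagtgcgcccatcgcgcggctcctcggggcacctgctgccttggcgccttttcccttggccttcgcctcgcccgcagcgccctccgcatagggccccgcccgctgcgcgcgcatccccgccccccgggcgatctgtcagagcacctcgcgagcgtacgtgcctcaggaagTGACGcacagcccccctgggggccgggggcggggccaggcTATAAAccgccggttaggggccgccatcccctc

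The role group of metabolic, lysosomal and other enzymes held 9 genes, all lower, and most of them are better known from inside the cell. Other enzymes of the set were placed in other groups and were higher, among them SULF2, APOA1BP and the peptidases KLK5, KLK10, CPA4 and PRSS57. CHID1, a chitinase-domain protein of lysosomes, had 48 knockdown and 237 scramble reads, 5.16-fold lower (3.77 to 7.19). GGH, the lysosomal and secreted hydrolase that trims glutamate from folates, had 153 and 520 reads in the knockdown and scramble libraries, 3.55-fold lower (2.96 to 4.28). These were the 2 of the 71 genes on the fixed list of lysosomal and glycan enzymes. Over that list of 88 symbols, 8 were listed, 3 higher and 5 lower. ENDOD1, an endonuclease-domain protein, had 265 knockdown and 797 scramble reads, 3.14-fold lower (2.73 to 3.62). PON2, a paraoxonase that counters oxidative stress inside cells, had 195 and 530 reads in the knockdown and scramble libraries, 2.84-fold lower (2.40 to 3.36).

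The remaining enzymes lay between 2.49-fold and 2.90-fold lower. SORD, sorbitol dehydrogenase of the polyol pathway, had 222 knockdown and 548 scramble reads, 2.58-fold lower (2.20 to 3.03). MAP2K2, the MEK2 kinase of the ERK cascade, had 223 and 545 reads in the knockdown and scramble libraries, 2.55-fold lower (2.18 to 2.997). ADPGK, an ADP-dependent glucokinase, had 79 knockdown and 188 scramble reads. DHRS13, a short-chain dehydrogenase, had 22 knockdown and 61 scramble reads. FAM108A1, now ABHD17A, a depalmitoylating enzyme with close copies in the genome, had 93 knockdown and 227 scramble reads. A fixed list held 113 cytosolic or nuclear symbols also found outside cells, none of them among the 71 genes. Of these, 27 were listed, 4 higher and 23 lower. Among all listed genes 66.7% were lower, and the list was chosen with earlier results of these data known.

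Carriers and proteins of other kinds comprised 6 higher and 3 lower genes. TCN1, haptocorrin, the vitamin B12 carrier of secretions, had 101 knockdown and 28 scramble reads, 3.45-fold higher (2.25 to 5.45). RTBDN, a riboflavin-binding protein of the retina, had 76 and 22 reads in the knockdown and scramble libraries, 3.31-fold higher (2.03 to 5.58). Both vitamin carriers were therefore higher, with overlapping intervals. APOA1BP, now NAXE, which repairs hydrated NADH and binds apolipoprotein A-I, had 671 knockdown and 288 scramble reads, 2.23-fold higher (1.94 to 2.57). FAM20A, a pseudokinase of the secretory pathway, was 2.49-fold higher (1.67 to 3.79), TCTN1 of the ciliary transition zone 3.46-fold (1.84 to 6.97) and DDRGK1 of the endoplasmic reticulum 2.18-fold (1.57 to 3.04). On the lower side were the open reading frames C18orf54, with 12 knockdown and 51 scramble reads, C6orf1, with 94 and 237, and C12orf73, with 64 and 162.

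**Figure D4:**
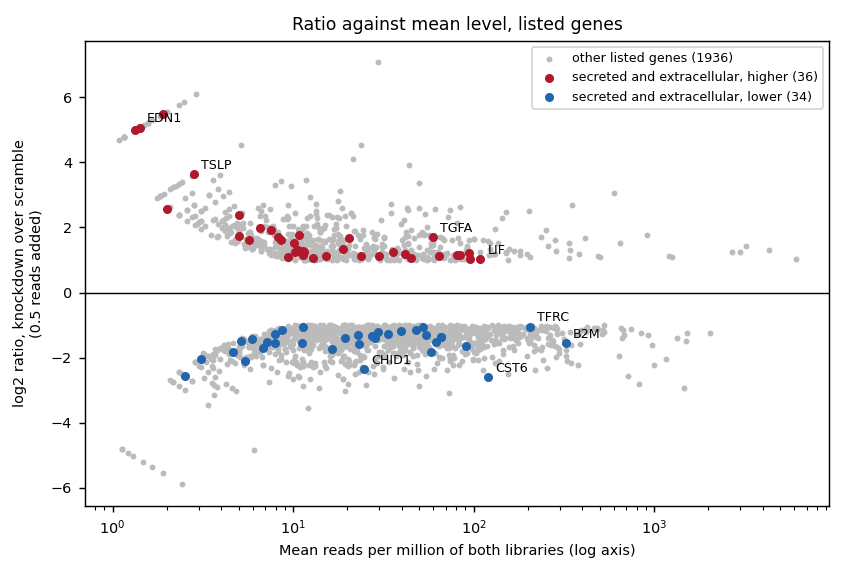
Log2 ratio (knockdown over scramble, 0.5 reads added) against mean RPM of both libraries (log axis) for 2006 of the 2007 listed genes, with 36 of the 37 higher genes in red, the 34 lower genes in blue and other listed genes in grey. No listed gene lies close to 0 because the table holds selected genes, and CST6 stands out among the lower genes for a large ratio at a high level.

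Function terms, and component terms other than the extracellular ones, were also counted. Growth factor activity was attached to 8 of the 71 genes, 6 higher and 2 lower, and to 20 listed genes, of which 13 were higher. Cytokine activity was attached to 6, 4 higher and 2 lower, and to 13 listed genes, of which 10 were higher. The term cell surface marked 5 of the 71 genes, all higher (HBEGF, PLAUR, SULF2, TGFA and ULBP2), beside 9 of 18 listed genes. Hydrolase activity marked 5, with 1 higher and 4 lower, beside 26 higher and 102 lower listed genes. Plasma membrane marked 17, with 6 higher and 11 lower, beside 83 higher and 105 lower among 188 listed genes. Of the smaller fixed lists, lipoproteins and lipid carriers (65 symbols) had 2 listed genes, PON2 and LRP8, both lower. Complement and innate defence (86 symbols) had 2, with C1QTNF6 higher and B2M lower. The insulin-like growth factor axis (13 symbols) had 2, with STC2 higher and IGFBP7, not one of the 71 genes, lower.

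Products that mark the intestinal secretory lineage were not among the listed genes. None of 63 fixed symbols for mucins, trefoil factors, antimicrobial peptides and gut hormones was listed, and levels of unlisted genes were not analysed here. The 8 epithelial markers fixed for HT-29 were not listed either, so the cell line label could not be checked from these values. Of 15 markers of fibroblasts, leukocytes and endothelium, 1 was listed: the fibroblast marker COL1A1 had 227 knockdown and 83 scramble reads, 2.62-fold higher (2.03 to 3.41), and its part in the results was not tested. The directions depended on scaling each library to its total. Setting the median ratio of the listed genes to 0 removes a log2 shift of -1.16, which moves every ratio upward. With it TFRC, TXLNA and LAD1 moved to the higher side and CD40 came to 0. The genes at least 2-fold lower went from 34 to 3. No higher gene could turn lower under an upward shift, so the 37 staying higher is no check of them.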

How the data were processed

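One table of listed genes was used, with 1 column per library matched to the labels by sample title. Whole-number counts per gene stand in it as the authors deposited them. Beside each count, a deposited column headed TPM equals the count divided by a library total times 1e6 within 0.005. As deposited it is therefore an RPM value, reads scaled by the authors to the library total, with 0 reads entered as 0.01. The library totals above are those it implies. The log2 ratio, p-value and FDR of the authors complete the table. It holds genes with an absolute deposited log2 ratio of at least 1 and an FDR of at most 0.001, and its p-values set one library against the other without replicates. The sources used here name no aligner, annotation, strand setting or build.

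From the counts, log2 ratios of knockdown over scramble were computed with 0.5 reads added, and folds without, with exact Clopper-Pearson 95% intervals. A count of 0 was set to a floor of 3 reads per library for its fold, which leaves out the counting error of the other library. No differential test was run. The interval was tested on simulated counts with counting error alone, the case it is built for. That run says nothing about variation between cultures. The named-gene rule took the 12 highest and 12 lowest ratios with at least 50 reads, the 3 most read genes per library and 3 per gene list (38 genes); the remaining ones, open reading frames included, are given to account for the rest of the set, except that 1 gene enters the counts and is not reported by name or plotted here. The members, the 12 gene lists and the 7 role groups were chosen with earlier results of these data known, the role groups and promoter motifs after the values were seen. Of 2007 identifiers, 2004 had RefSeq names. Alternatives covered pseudocount, scaling, floor, fold limit and choice of genes. The software was scipy 1.17.1, pandas 2.3.3 and numpy 2.4.6 on Python 3.11.15, with matplotlib 3.10.9 for plots.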

Additional observations from a re-analysis of the deposited data

How the results depend on the processing

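No paired analysis was possible because knockdown and scramble had 1 library each, and leaving out a library was impossible for the same reason. Adding 0.05 or 5 reads, or using the authors' deposited ratios, turned no gene's direction. That outcome was set by the selection at about 2-fold on these same counts, so it is no check of the directions. A floor of 5 RPM and no floor kept both counts within 1.5 times. Scaling to the median, the trimmed mean (30% off each side) or the upper quartile of the listed genes took out a log2 shift of -1.16, -1.005 or -0.71. In that order the median log2 ratio of the 71 genes became 2.196, 2.04 and 1.74, and the genes at least 2-fold lower became 3, 5 and 9. These scalings use selected genes, most of them lower, and move every ratio upward. With the first, TFRC (0.11), TXLNA (0.10) and LAD1 (0.095) changed sign. At 4-fold, 8 genes were higher and 5 lower, and intervals wholly beyond 2-fold held for 14 and 14. Chosen after seeing the data, genes with extracellular terms alone numbered 19 higher and 12 lower, and all 108 genes with an extracellular term 62 and 46. A planned restriction to proteins with a hydrophobic N terminus was not run. Depth limits the 10 genes with under 50 reads, among them the 3 with 0 scramble reads.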

Other observations

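The 37 genes with an extracellular term that were left out by process term or symbol leaned upward more than the 71: 25 were higher and 12 lower, with a median log2 ratio of 1.53. The rule barred several of them by name, so this difference is a description of the choice.

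Some of the 71 genes neighbour each other on a chromosome, counting protein-coding genes of GRCh38.p14. FSTL3 and PRSS57 on chromosome 19 have none between them and were both higher. KLK10 and KLK5 on chromosome 19 have 4 between them and were both higher. B2M and SORD on chromosome 15 have 2 between them and were both lower. CMTM8 and CMTM6 on chromosome 3 have 1 between them and lay on opposite sides, at log2 ratios of 1.11 and -1.57.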
